A study of Homo sapiens with 8 samples.

Results

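A set of 10 nuclear genes of mitochondrial protein quality control and mitochondrial stress signalling was followed in T47D cells: the proteases LONP1, CLPP, CLPX, AFG3L2 and YME1L1, the chaperones HSPD1, HSPE1 and HSPA9, and the secreted hormones FGF21 and GDF15. They were taken by gene symbol from the platform's probe table, which gave 1 single-gene probe set for each, 10 of the 33297 probe sets in the table. T47D is an established luminal breast carcinoma line. The cells had received lentivirus with a conditional shRNA against EglN2 (an oxygen-dependent prolyl hydroxylase) or with the Scr control shRNA. The 4 groups, with 2 arrays each, were EglN2 shRNA cells at day 2 (48 h of doxycycline, 1 ug/ml in the protocol), EglN2 shRNA cells at day 0 (0 h of doxycycline), Scr cells at day 2 and Scr cells at day 0, all from infected cells. The labels do not say whether a line was 1 clone or a pool, nor whether replicates were separate cultures, so the p-values describe the spread among these arrays, which may be technical. No group kept for 48 h without doxycycline was analysed here. The drug, the induced hairpin and the time in culture therefore cannot be told apart within a line.

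Mitochondria make a few respiratory chain subunits on their own ribosomes, which resemble bacterial ribosomes, and doxycycline, a tetracycline antibiotic, can slow that synthesis. Unbalanced or misfolded proteins in the organelle are handled by the matrix proteases LONP1 and CLPXP, by inner membrane proteases of the AAA+ family and by the chaperones HSP60, HSP10 and mortalin. In the mitochondrial unfolded protein response, first described in cultured mammalian cells and worked out in the worm Caenorhabditis elegans, genes of this kind are switched on. In mammalian cells mitochondrial stress also acts through the transcription factor ATF4, whose targets include the genes of the circulating hormones FGF21 and GDF15.

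None of the 10 genes passed the test in any of 6 comparisons (limma, adjusted p under 0.05 over 21214 named probe sets), where between 0% and 0.141% of all probe sets did. The averaged day 2 minus day 0 difference of the 10 genes had a median of 0.04 on the log2 scale, while a list of 21 ATF4 target genes on the same arrays had a median of 0.38 and 6 members that rose. That list was written with earlier results of these data known, and at most 1 of its members was called when any 1 array was left out. The 95% confidence intervals of the averaged difference reached at most 1.39-fold upward (GDF15) and at most down to 80.0% of the day 0 level (HSPE1). LONP1 and GDF15 had the largest positive differences and HSPE1 the largest negative one, each short of the threshold.

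The arrays were similar in scale, with medians over the named probe sets between 7.81 and 7.86 and replicate correlations of 0.992 to 0.996. All 10 luminal epithelial markers lay above the median probe set (means 7.92 to 14.10), against 0 of 5 leukocyte, 0 of 4 endothelial, 1 of 5 fibroblast and 1 of 4 basal or mesenchymal markers. The array medians of the leukocyte list were 5.88 to 6.04 and 5.96 to 6.08 in the EglN2 shRNA line at day 2 and day 0, and 5.73 to 6.07 and 6.13 to 6.21 in the Scr line at day 2 and day 0. The EGLN2 probe set, which it shares with the RAB4B-EGLN2 read-through, read 8.26 and 8.29 in EglN2 shRNA cells at day 2, against 8.85 and 9.04 at day 0 (log2 difference -0.67, SE 0.11, limma adjusted p = 0.134). In Scr cells it read 8.81 and 8.90 at day 2, against 8.97 and 9.00 at day 0 (-0.13, SE 0.11). The changes of the lines differed by -0.54 (SE 0.15, limma adjusted p = 0.671). None of these EGLN2 differences passed the threshold. In these bulk RNA samples fewer cells making a transcript and less of it per cell cannot be told apart.

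**Figure D1:**
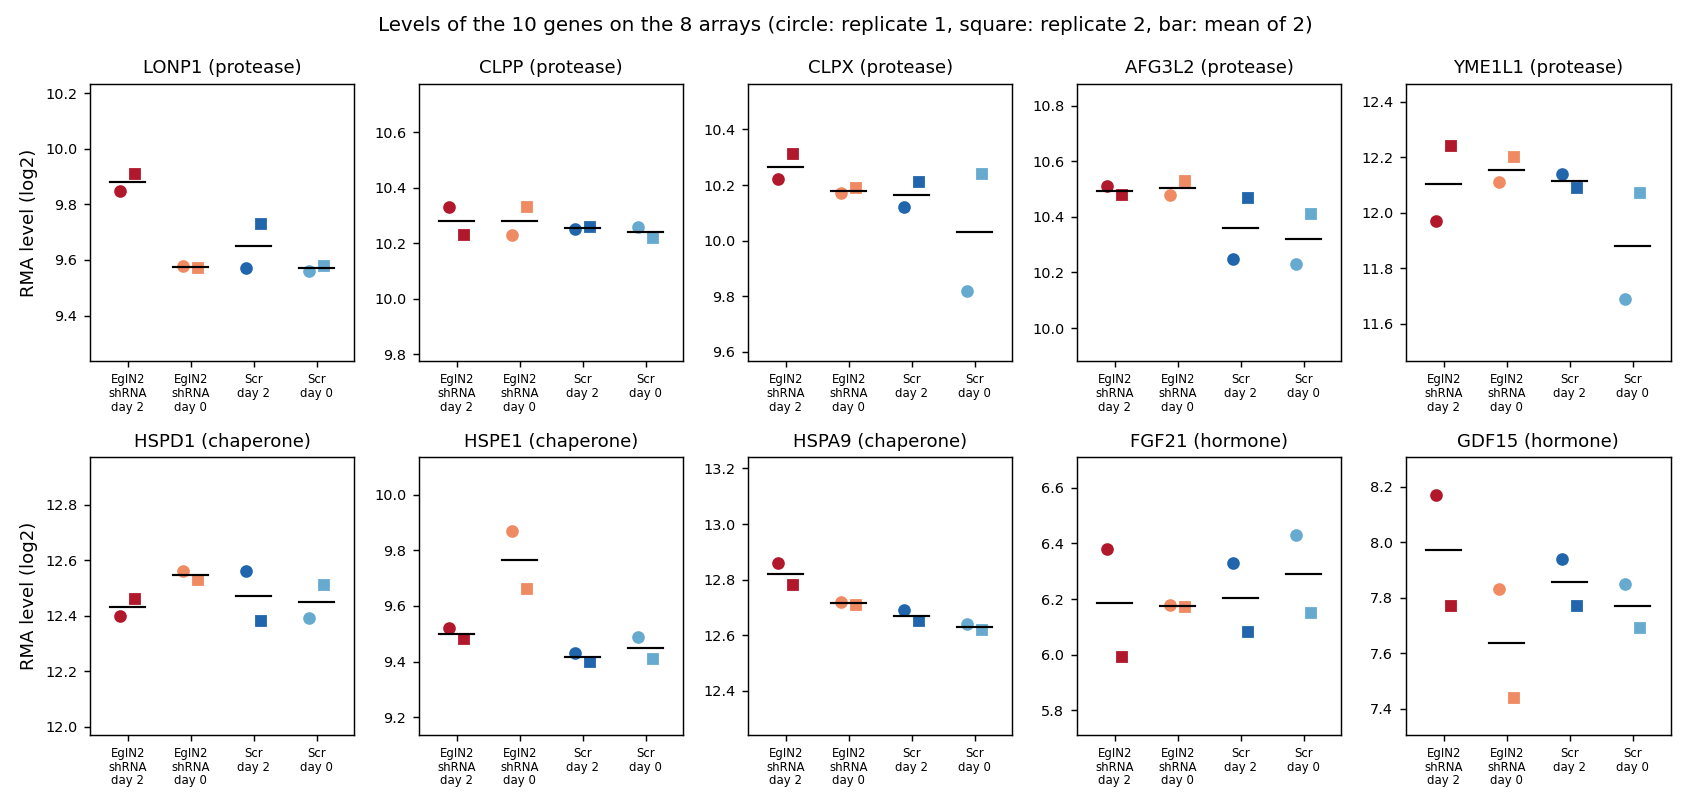
RMA log2 levels of the 10 genes, 1 panel per gene, each spanning 1 log2 unit. Circles are replicate 1, squares replicate 2 and bars the mean of 2 arrays. LONP1 is highest on both EglN2 shRNA day 2 arrays (9.85 and 9.91), HSPE1 is highest on both EglN2 shRNA day 0 arrays (9.87 and 9.66), and CLPX and YME1L1 are lowest on 1 Scr day 0 array (9.82 and 11.69).

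Among the proteases, LONP1, an ATP-dependent protease that clears oxidised and misfolded proteins from the matrix and also binds mitochondrial DNA, had the largest averaged day difference. Its probe set (8033002) read 9.85 and 9.91 in EglN2 shRNA cells at day 2, against 9.58 and 9.57 at day 0. In Scr cells it read 9.57 and 9.73 at day 2, against 9.56 and 9.58 at day 0. Both EglN2 shRNA day 2 arrays lay above the other 6, of which 1 Scr day 2 array was the highest. The day difference in the EglN2 shRNA line was 0.31 (SE 0.10, interval 0.08 to 0.53), or 1.24-fold, with a limma adjusted p of 0.717. In the Scr line it was 0.08 (SE 0.10, interval -0.15 to 0.31), and the difference between the lines' changes was 0.23 (SE 0.14, adjusted p = 0.729), so the lines were not shown to differ.

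CLPX and CLPP form the other matrix protease: CLPX unfolds substrates and CLPP, the peptidase barrel, cuts them. CLPX read 10.22 and 10.31 in EglN2 shRNA cells at day 2, against 10.17 and 10.19 at day 0, and 10.12 and 10.21 in Scr cells at day 2, against 9.82 and 10.24 at day 0. The spread of CLPX was set by Scr day 0 replicate 1, which lay below all others: its Scr day difference of 0.14 (SE 0.14) was -0.07 without that array and 0.35 without replicate 2. CLPP was the steadiest of the 10, with all 8 arrays between 10.22 and 10.33. Its averaged day difference was 0.01 (SE 0.07, interval -0.15 to 0.17), whose upper end is a 1.12-fold difference.

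The inner membrane holds AFG3L2, the subunit of the m-AAA protease that faces the matrix, and YME1L1, the i-AAA protease that faces the intermembrane space. AFG3L2 read 10.51 and 10.48 in EglN2 shRNA cells at day 2, against 10.48 and 10.53 at day 0, and 10.25 and 10.47 in Scr cells at day 2, against 10.23 and 10.41 at day 0. The days overlapped in both lines, and all 4 EglN2 shRNA arrays read above all 4 Scr arrays. Over both days the lines did not overlap for 2 of the 10 genes, AFG3L2 and HSPA9, against 3.51% of all probe sets. The gaps were narrow. The lowest EglN2 shRNA and highest Scr arrays read 10.48 and 10.47 for AFG3L2, and 12.71 and 12.69 for HSPA9. The line differences at day 2 and day 0 were 0.14 and 0.19 for AFG3L2 (SE 0.12, limma adjusted p = 0.995 and 0.55). For HSPA9 they were 0.15 and 0.09 (SE 0.10, limma adjusted p = 0.995 and 0.73). YME1L1 read 11.97 and 12.24 in EglN2 shRNA cells at day 2, against 12.11 and 12.20 at day 0, and 12.14 and 12.09 in Scr cells at day 2, against 11.69 and 12.07 at day 0. The same Scr day 0 array that was low for CLPX was low here: the Scr day difference of 0.24 (SE 0.14, limma adjusted p = 0.5) was 0.05 without it and 0.43 without its replicate.

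HSPD1 (HSP60) and HSPE1 (HSP10) are the barrel and the lid of the chaperonin that folds matrix proteins, and HSPA9 (mortalin) is the matrix HSP70 that pulls in and folds imported chains. HSPD1 and HSPE1 stand head to head. In RefSeq (GRCh38.p14) the start of HSPE1 lies 105 bases from the nearer of 2 HSPD1 starts, which is transcribed the other way. The 104 bases between the starts are shown because they lie between the starts of both genes, on the plus strand at chr2:197500275-197500378, with a CACGTG hexamer (an E-box) in capitals.
HSPD1-HSPE1: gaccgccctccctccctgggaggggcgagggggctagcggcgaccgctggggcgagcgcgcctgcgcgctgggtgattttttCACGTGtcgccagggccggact

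The probe set of HSPE1 (8047223) read 9.52 and 9.48 in EglN2 shRNA cells at day 2, against 9.87 and 9.66 at day 0, and 9.43 and 9.40 in Scr cells at day 2, against 9.49 and 9.41 at day 0. The EglN2 shRNA day 0 pair stood above the other 6 arrays. The day difference in that line was -0.26 (SE 0.11, interval -0.51 to -0.02, limma adjusted p = 0.812), and it was -0.37 or -0.16 when 1 of the day 0 arrays was left out. HSPD1 read 12.40 and 12.46 in EglN2 shRNA cells at day 2, against 12.56 and 12.53 at day 0, and 12.56 and 12.38 in Scr cells at day 2, against 12.39 and 12.51 at day 0. Its day difference was -0.11 (SE 0.11) in the EglN2 shRNA line and 0.02 (SE 0.11) in the Scr line. HSPE1 and HSPD1 both have many processed pseudogenes, and the files do not say whether the probes separate them. A further probe set named for HSPE1-MOB4 and MOB4 is not one of the 10 and could not be given to HSPE1: it read 9.13 and 9.36 in EglN2 shRNA cells at day 2, against 9.45 and 9.32 at day 0, and 9.35 and 9.36 in Scr cells at day 2, against 8.58 and 9.37 at day 0.

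HSPA9 replicates lay close together. HSPA9 read 12.86 and 12.78 in EglN2 shRNA cells at day 2, against 12.72 and 12.71 at day 0, and 12.69 and 12.65 in Scr cells at day 2, against 12.64 and 12.62 at day 0. In both lines the day 2 pair lay above the day 0 pair, by 0.11 (SE 0.10) in the EglN2 shRNA line and 0.04 (SE 0.10) in the Scr line. The gap in the Scr line was narrow, between 12.65 and 12.64. Such pairs did not overlap for 30.7% of all probe sets in the EglN2 shRNA line and 47.8% in the Scr line. The averaged difference of 0.07 (SE 0.07, interval -0.08 to 0.23) did not pass (limma adjusted p = 0.743).

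GDF15, a distant member of the TGF-beta family that curbs appetite through the brainstem receptor GFRAL, had the widest range of the 10 genes over the arrays. It read 8.17 and 7.77 in EglN2 shRNA cells at day 2, against 7.83 and 7.44 at day 0. In Scr cells it read 7.94 and 7.77 at day 2, against 7.85 and 7.69 at day 0. The days overlapped in both lines, and replicate 1 was above replicate 2 in each of the 4 groups. The day difference was 0.34 (SE 0.17, interval -0.04 to 0.71, limma adjusted p = 0.896) in the EglN2 shRNA line and 0.09 (SE 0.17, interval -0.29 to 0.46) in the Scr line. Leaving out 1 EglN2 shRNA array at a time moved the value of the EglN2 shRNA line between 0.14 and 0.54.

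FGF21, a hormone of fasting and mitochondrial stress that signals through FGF receptors with the co-receptor KLB, read 6.38 and 5.99 in EglN2 shRNA cells at day 2, against 6.18 and 6.17 at day 0. In Scr cells it read 6.33 and 6.08 at day 2, against 6.43 and 6.15 at day 0. FGF21 groups overlapped in every pair compared. The averaged difference was -0.04 (SE 0.11, interval -0.28 to 0.21, adjusted p = 0.927). RMA values carry no call of presence, and RMA compresses differences of dim probe sets, so whether FGF21 was above background was not determined.

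The 250 bases before the RefSeq starts of the 2 hormone genes (GRCh38.p14, plus strand) are shown because both are known ATF4 targets. They were searched on both strands for TGATGNAA, the core of the composite element that ATF4 and C/EBP proteins bind, and the match is in capitals. FGF21 lies at chr19:48755274-48755523 and GDF15 at chr19:18385908-18386157.
FGF21: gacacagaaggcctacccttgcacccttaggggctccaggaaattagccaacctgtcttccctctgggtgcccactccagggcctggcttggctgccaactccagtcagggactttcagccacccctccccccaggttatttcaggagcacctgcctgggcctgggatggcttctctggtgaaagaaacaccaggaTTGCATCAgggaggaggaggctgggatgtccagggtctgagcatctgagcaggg
GDF15: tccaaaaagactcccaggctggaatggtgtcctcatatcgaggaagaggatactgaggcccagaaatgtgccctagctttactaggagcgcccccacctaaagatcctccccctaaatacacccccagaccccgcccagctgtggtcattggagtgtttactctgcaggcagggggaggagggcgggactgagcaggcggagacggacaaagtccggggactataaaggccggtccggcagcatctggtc

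In FGF21 the match is on the opposite strand (TGATGCAA). On the printed strand it reads TTGCATCA, whose first base is at position -54 relative to the start. No match to these letters is in the GDF15 stretch, and ATF4 sites outside this window were not searched. In the full windows of 300 bases (250 before to 50 after a start), the motif was found for 1 of the 8 genes with a window, against 3.62% of 35116 windows in the table and 5 of the 16 listed ATF4 targets that have one. The CACGTG hexamer was found for 4 of the 8 genes (HSPA9, HSPD1, HSPE1 and LONP1), against 7.26% of all windows, and the hit of HSPD1 and that of HSPE1 are the same 6 bases. The letters GAANNTTC, a pair of facing heat shock units, were found for 1 of the 8 (HSPD1), against 6.77% of windows. The counts are over genes, and the 8 genes had 10 windows, while the shares are over windows. A gene with more than 1 window had more than 1 chance of a match. These shares were not matched for base composition. CLPP and YME1L1 had no window.

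Counts over the 10 genes are given beside the share of all named probe sets that met the same rule. In the EglN2 shRNA line 0 of 10 passed, where 0.00943% of all probe sets did. An unadjusted p under 0.05 was seen for 2 of 10 (LONP1 and HSPE1, in opposite directions), against 5.77%. The day 2 and day 0 pairs did not overlap for 5 of the 10, against 30.7% of all probe sets. In the Scr line 0 of 10 passed (background 0%), 0 had an unadjusted p under 0.05 (background 12.9%), and 2 of 10 did not overlap (background 47.8%). The 95% intervals in single lines reached up to 1.64-fold (GDF15) and down to 70.3% (HSPE1) in the EglN2 shRNA line, and up to 1.47-fold (YME1L1) and down to 74.0% (FGF21) in the Scr line.

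**Figure D2:**
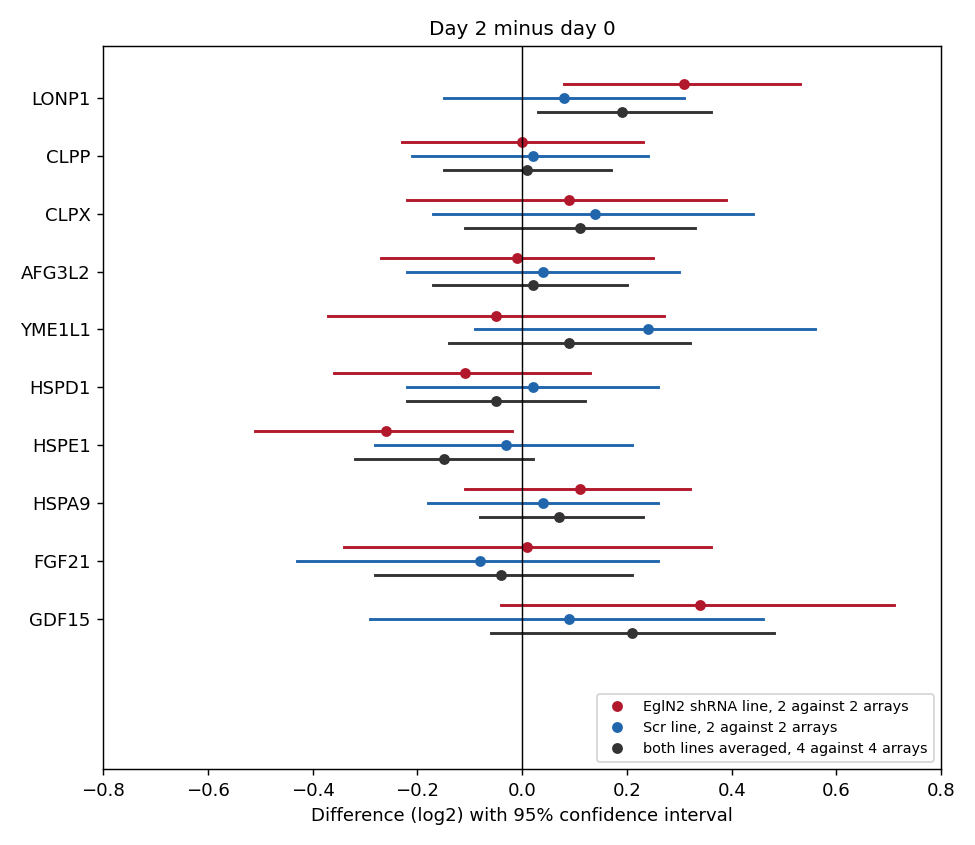
Day 2 minus day 0 differences (log2, x axis) of the 10 genes with 95% confidence intervals from limma, not adjusted for the number of tests. Points are the EglN2 shRNA line, the Scr line and the average of both. The intervals of LONP1 in the EglN2 shRNA line (0.08 to 0.53) and averaged (0.03 to 0.36) and of HSPE1 in the EglN2 shRNA line (-0.51 to -0.02) leave out 0, and none of these 3 passed the adjusted test.

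Averaging the lines gives each day 4 arrays and a smaller error (median SE 0.09 over all probe sets, against 0.12 in 1 line). Of the 10 genes 7 had a positive and 3 a negative averaged difference, where 47.8% of all probe sets had a positive one. In this comparison 0 passed, where 0.141% of all probe sets did, and 1 had an unadjusted p under 0.05, against 10.7%. That gene was LONP1, which averaged 9.77 ± 0.15 at day 2 and 9.57 ± 0.01 at day 0 (SD, n = 4 each), a difference of 0.19 (SE 0.07, limma adjusted p = 0.401). GDF15 averaged 7.91 ± 0.19 at day 2 and 7.70 ± 0.19 at day 0 (SD, n = 4 each), a difference of 0.21 (SE 0.12, limma adjusted p = 0.565). HSPE1 averaged 9.46 ± 0.05 at day 2 and 9.61 ± 0.20 at day 0 (SD, n = 4 each), a difference of -0.15 (SE 0.08, limma adjusted p = 0.522). For 0 of 10 did the 4 day 2 arrays separate from the 4 day 0 arrays, against 5.09% of all probe sets.

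Lists of genes that work beside the 10 were counted in the averaged comparison. Of 14 genes listed with the other mitochondrial proteases (CLPB, which is not a protease, among them) 0 passed in either direction (median 0.07). An unadjusted p under 0.05 was seen for 2, against 10.7% of all probe sets. In that list 11 differences were positive, against 47.7% of all 18417 genes, whose median was -0.01. The processing peptidase subunit PMPCB, which removes import signals, read 10.27 and 10.31 in EglN2 shRNA cells at day 2, against 10.11 and 10.12 at day 0, and 10.30 and 10.31 in Scr cells at day 2, against 9.68 and 9.91 at day 0 (averaged 0.34, SE 0.08, limma adjusted p = 0.161). Of 8 measured genes listed with the co-chaperones and import motor subunits 0 passed (median 0.07). An unadjusted p under 0.05 was seen for 3 (2 higher, 1 lower), against 10.7% of all probe sets. The mitochondrial HSP90 TRAP1 differed by 0.33 (SE 0.07) and GRPEL2, a nucleotide exchange factor for HSPA9, by 0.39 (SE 0.09), while the second such factor, GRPEL1, differed by -0.23 (SE 0.08). The GRPEL1 day difference was -0.48 (SE 0.12, limma adjusted p = 0.382) in the EglN2 shRNA line and 0.03 (SE 0.12) in the Scr line, and these differed by -0.51 (SE 0.16, limma adjusted p = 0.676). The 4 genes listed with the inner membrane scaffold (PHB1, PHB2, STOML2 and the pseudogene AFG3L1P) had a median of 0.04 and 0 calls. Of these, 0 had an unadjusted p under 0.05. None of the 15 listed mitochondrially encoded genes had a single-gene probe set.

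The transcripts of genes listed with the stress signal to the nucleus had averaged differences of unequal size. Of these 13, 0 passed the threshold (limma), where 0.141% of all probe sets did. An unadjusted p under 0.05 was seen for 4 (3 higher, 1 lower), against 10.7% of all probe sets. ATF4 read 12.03 and 12.00 in EglN2 shRNA cells at day 2, against 11.51 and 11.56 at day 0, and 11.86 and 11.74 in Scr cells at day 2, against 11.31 and 11.50 at day 0. In each line the day 2 pair lay above the day 0 pair. The day pairs did not overlap for 30.7% of all probe sets in the EglN2 shRNA line and 47.8% in the Scr line. The averaged ATF4 difference was 0.44 (SE 0.08, limma adjusted p = 0.0837). DDIT3 (CHOP), a transcription factor induced by ATF4, differed by 0.46 (SE 0.10, adjusted p = 0.153). ATF5, proposed as the mammalian counterpart of the worm regulator ATFS-1, differed by -0.32 (SE 0.11, adjusted p = 0.368). Of the 6 measured receptors and co-receptors of the 2 hormones 0 passed (median -0.09), and 0 had an unadjusted p under 0.05. The shares of all probe sets were 0.141% and 10.7%. GFRAL and KLB were dim (means of 4.07 and 5.87 over the 8 arrays), and whether they were above background was not determined.

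Of the 21 ATF4 targets of amino acid metabolism and stress, 6 rose and 0 fell in the averaged comparison (limma, adjusted p under 0.05). Of all probe sets 0.141% passed. A positive difference was seen for 16 and a negative one for 4, where 47.7% of all genes had a positive one. At an unadjusted p under 0.05, 16 were higher and 1 lower, against 10.7% of all probe sets in either direction. The lower one was SLC7A5 (-0.43, SE 0.09, limma adjusted p = 0.108). The direction of this list is not independent evidence, since earlier results were known. The mitochondrial folate enzyme ALDH1L2 rose by 0.82 (SE 0.10, adjusted p = 0.0315), the mitochondrial PEP carboxykinase PCK2 by 0.56 (SE 0.07), and the serine synthesis enzymes PSAT1 by 0.77 (SE 0.10) and PHGDH by 0.54 (SE 0.08). PCK2 read 8.84 and 8.71 in EglN2 shRNA cells at day 2, against 8.14 and 8.27 at day 0, and 8.68 and 8.64 in Scr cells at day 2, against 8.10 and 8.11 at day 0. These calls were not stable to single arrays: 1 target was called without EglN2 shRNA day 2 replicate 1, and 0 without any other single array. The medians moved less, between 0.33 and 0.43 for the targets and between 0.01 and 0.07 for the 10 genes over the same 8 omissions. The gap between these medians was not tested.

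**Figure D3:**
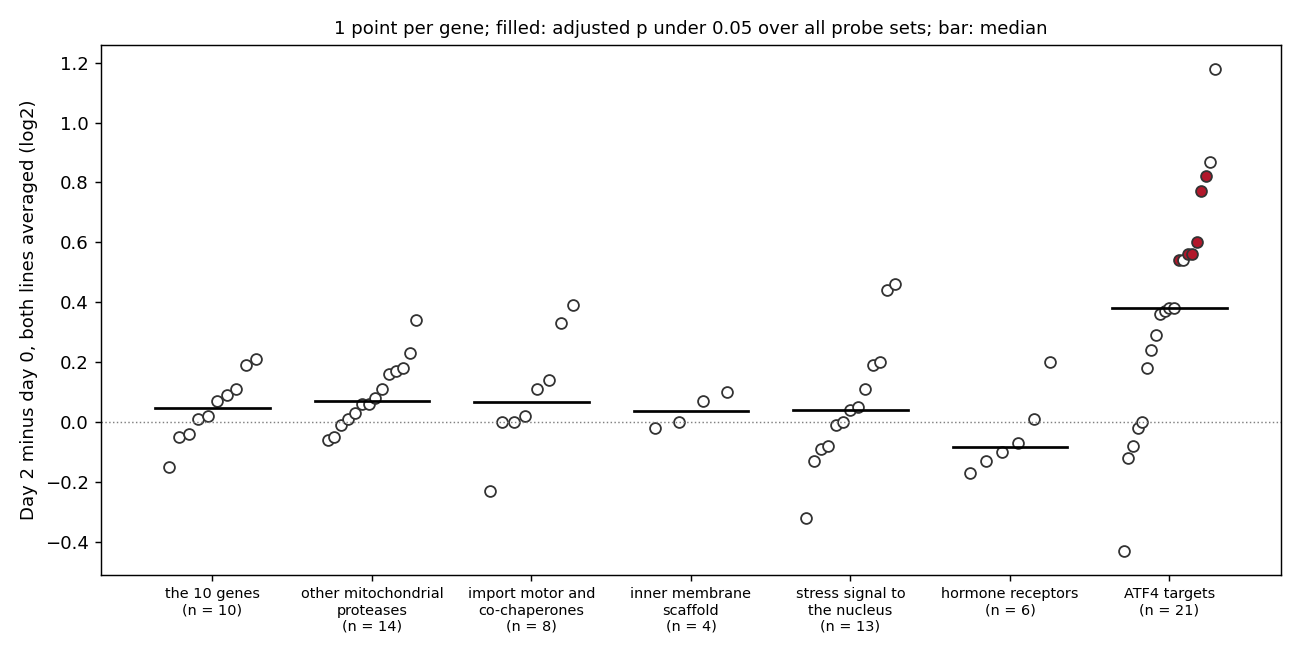
Day 2 minus day 0 differences averaged over both lines (log2, y axis), 1 point per gene, for the 10 genes and 6 lists of related genes. Bars are medians and filled points passed the limma test over all probe sets. The 10 genes lie between -0.15 and 0.21 (median 0.04), and filled points occur among the ATF4 targets (6 of 21, median 0.38).

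The next comparison asked whether the change differed between the EglN2 shRNA line and the Scr line. Each hairpin had its own line, so hairpin and line cannot be told apart. For the difference of the 2 day changes 0 of 10 passed (background 0%), 0 had an unadjusted p under 0.05 (background 7.12%), and the 4 differences between a day 2 and a day 0 array that each line allows did not overlap between the lines for 2 (LONP1 and HSPE1, background 20.5%). The values ran from -0.28 (YME1L1, SE 0.20, interval -0.74 to 0.17) to 0.25 (GDF15, SE 0.24, interval -0.28 to 0.78). The YME1L1 value was -0.09 without Scr day 0 replicate 1 and the GDF15 value 0.05 without EglN2 shRNA day 2 replicate 1. The median SE of this comparison was 0.17 over all probe sets, above the 0.12 of a change within 1 line.

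Between the lines at day 2, 0 of 10 passed (background 0.0754%), 1 had an unadjusted p under 0.05 (background 5.19%), and 5 did not overlap (background 30.4%). LONP1 was that gene, at 9.85 and 9.91 in EglN2 shRNA cells, against 9.57 and 9.73 in Scr cells (0.23, SE 0.10, limma adjusted p = 0.96). At day 0, 0 of 10 passed (background 0%), 1 had an unadjusted p under 0.05 (background 10.4%), and 5 did not overlap (background 45%). Here it was HSPE1, at 9.87 and 9.66 in EglN2 shRNA cells, against 9.49 and 9.41 in Scr cells (0.32, SE 0.11, interval 0.07 to 0.56, limma adjusted p = 0.455). Before doxycycline 8 of the 10 read higher in the EglN2 shRNA line, with a median of 0.09, where 50.1% of all probe sets did. At day 2 it was 7 of the 10, with a median of 0.09, where 50.3% did. The day 0 count includes LONP1 at 0.01 and CLPX at 0.15, which was -0.06 without Scr day 0 replicate 1. At day 0 FGF21 (-0.11, SE 0.16) and GDF15 (-0.13, SE 0.17) were the 2 that read lower. The lean at day 0 was not particular to the 10 genes. Higher readings were seen for 11 of 14 in the list of other proteases and 8 of 8 in the import motor list. They were also seen for 3 of 4 scaffold genes, 10 of 13 stress signal genes and 18 of 21 ATF4 targets. Among the receptors and co-receptors it was 3 of 6, and among all genes 50.3%.

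**Figure D4:**
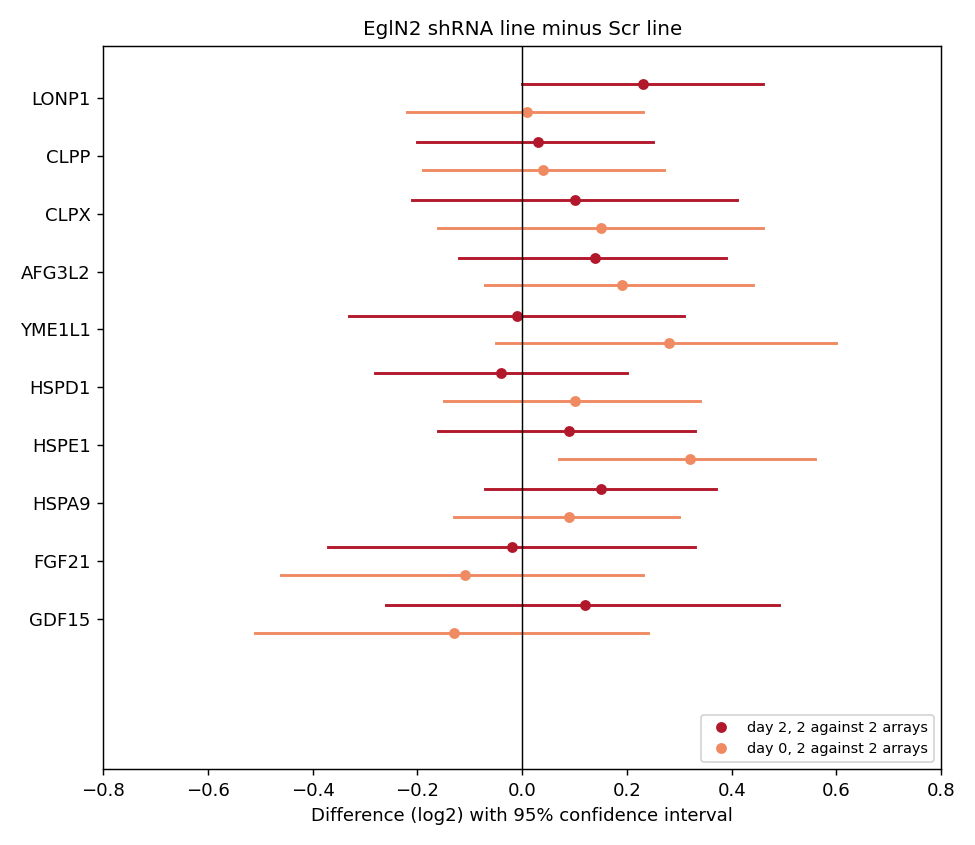
EglN2 shRNA line minus Scr line (log2, x axis) for the 10 genes at day 2 and at day 0, with 95% confidence intervals from limma, not adjusted for the number of tests. At day 0 the interval of HSPE1 (0.07 to 0.56) leaves out 0, and at day 2 the interval of LONP1 starts at 0.00 after rounding. Neither passed the adjusted test.

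HSPE1 had the largest spread of the 4 group means (SD 0.16). The 5 other genes whose mean-centred levels lay nearest to it over the 8 arrays were CLCA2, STK38L, LSM6, TXNDC15 and GPATCH1, with root mean square differences of 0.04 to 0.06, against a median of 0.20 for all probe sets. This nearness is what they were chosen for. STK38L, for example, read 8.97 and 8.88 in EglN2 shRNA cells at day 2, against 9.23 and 9.05 at day 0, and 8.87 and 8.77 in Scr cells at day 2, against 8.91 and 8.72 at day 0.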

How the data were processed

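Total RNA of T47D cells was labelled with biotin and hybridised to 1-colour Affymetrix arrays. Levels were deposited by the authors as RMA log2 values per probe set, which the submitters' processing notes credit to Affymetrix Expression Console. The genome build was not given in the sources used here. Such values are background-corrected, quantile-normalized and summarised over probes, and dim differences are compressed. The values (2.73 to 15.25) were used unscaled. Scanner files were not used here. Of 33297 probe sets, 19460 had 1 gene name in the platform table, 1754 several and 12083 none. Gene IDs of the single names were matched to RefSeq (GRCh38.p14) for current symbols, and 19429 matched. Group means of all 8 arrays were fitted with limma 3.58.1 in R 4.3.3 (4 residual plus 5.53 prior degrees of freedom), with 6 two-sided comparisons, each adjusted by Benjamini-Hochberg over 21214 named probe sets at 0.05. The fit was tested on simulated data with planted differences larger than any seen for the 10 genes. Its power for differences of the size seen here was not assessed. The 10 genes, named in every comparison, and the lists (highest-mean probe set per gene, up to 4 members with the smallest averaged p named) were chosen with earlier results of these data known. Beyond those 4, SLC7A5 was named as the 1 ATF4 target lower at an unadjusted p under 0.05, and GFRAL for its low level. Alternatives changed the arrays fitted, the prior, the probe sets tested, a filter at a mean of 6, the normalization, the replicate block and single arrays. The number of arrays limits the precision.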

Additional observations from a re-analysis of the deposited data

Results flagged for a closer look

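Of 76 genes examined (the 10 and those of the related lists), 2 had day changes that ran in opposite directions in the 2 lines on every array, a pattern found for 5.69% of all named probe sets. IMMP1L, a subunit of the inner membrane peptidase, read 7.11 and 6.95 in EglN2 shRNA cells at day 2, against 7.61 and 7.41 at day 0, and 7.32 and 7.62 in Scr cells at day 2, against 7.03 and 7.17 at day 0. Its difference of day changes was -0.85 (SE 0.19, limma adjusted p = 0.652). DELE1, which relays mitochondrial stress to the kinase EIF2AK1, read 9.00 and 8.96 in EglN2 shRNA cells at day 2, against 9.17 and 9.18 at day 0, and 9.18 and 9.25 in Scr cells at day 2, against 9.08 and 8.99 at day 0. Its difference of day changes was -0.37 (SE 0.14, limma adjusted p = 0.676). None of the 10 genes showed the pattern.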

How the results depend on the processing

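In all alternatives 0 of the 10 genes were called in any comparison: the smallest adjusted p was 0.278 under other processing (520 values, 15 with a changed sign) and 0.237 with 1 array left out (480 values, 43 with a changed sign, 30 moved by over 1 SD). The number of probe sets called depended more on the settings. In the EglN2 shRNA line 2 became 0 with only that line's arrays or with all probe sets of the table, and 0 to 2 with 1 array left out (0 without day 2 replicate 1 or day 0 replicate 1, 1 without day 0 replicate 2). In the Scr line 0 became 6 with the prior variance following the level. In the averaged comparison 30 became 76 with that prior, 0 with all probe sets of the table and 0 to 20 with 1 array left out (20 without EglN2 shRNA day 2 replicate 1, 6 without its replicate 2, 0 without each of the others). The 6 called ATF4 targets became 10, 0 and 0 to 1 in the same 3 settings (an alternative chosen after seeing the data). The difference of changes went to 2 with that prior, where 0 had been called. At day 2 between the lines 16 became 26 with that prior, 0 with only those arrays or with all probe sets, and 0 to 15 with 1 array left out (15 without EglN2 shRNA day 2 replicate 2, and 4 or fewer without each of the others). The causes were not tested.

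Replicate numbers come from the labels, which do not say that a number marks a shared culture or day. Deviations of same-numbered arrays correlated at 0.0981 to 0.271 between groups. HSPE1, HSPA9, FGF21 and GDF15 read higher on replicate 1 in all 4 groups (10.6% of all probe sets did) and CLPX on replicate 2 (9.61% did). With a replicate block, 13, 42, 150 and 32 probe sets were called in the EglN2 shRNA line, the Scr line, the averaged comparison and at day 2 between the lines, and 10 ATF4 targets. Between same-numbered arrays the GDF15 day differences were 0.34 and 0.33 in the EglN2 shRNA line and 0.09 and 0.08 in the Scr line, and its averaged difference had an SE of 0.08 (adjusted p = 0.279). No signal over background was at hand, so the limit for dim probe sets such as FGF21 is unknown.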
